A study of Mus musculus with 4 samples.

Results

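Compact cardiomyocytes that were not cycling were studied in single-cell RNA sequencing of mouse ventricles at embryonic day 14.5. They numbered 1682 of the 45551 cell barcodes in 4 libraries, or 3.69%. Members were selected on measured values, in counts of unique molecular identifiers (UMIs, each a counted RNA molecule). A member held 1000 to 7000 genes, at most 15% of UMIs from mitochondrial genes and at least 1% from the cardiomyocyte genes Tnnt2, Actc1, Tnnc1 and Ttn together. It held at most 1 UMI of the endothelial genes Pecam1, Cdh5, Emcn and Egfl7, and at most 3 UMIs of the 8 cycle genes Rrm2, Esco2, Pclaf, Hist1h1b, Ube2c, Ccnb1, Cenpf and Hmmr. Tnnt1, the slow skeletal isoform of troponin T, made up at least 0.2% of its UMIs, Nppa, which encodes atrial natriuretic peptide, made up under 0.05%, and Tbx3, a transcription factor of the conduction system, was at 0. None of these 19 genes was tested, and their values are given as a description. Mitochondrial genes, which the rule limits only as a sum, were kept in the test.

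The wall of the embryonic ventricle has an outer compact layer, which thickens as its cardiomyocytes divide, and an inner layer of trabeculae that project into the chamber. Compact cardiomyocytes express the transcription factor Hey2 and lie under the epicardium and among the forming coronary vessels, while trabecular cardiomyocytes express Nppa and face the endocardium. Neuregulin, fibroblast growth factors and insulin-like growth factors from neighbouring cells are known to act on the growth of this muscle.

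The study asked how loss of the transcription factor Ets1 from endothelium bears on the compact layer. Control libraries came from Tie2Cre; Ets1 fl/+ embryos and knockout libraries, here eKO, from Tie2Cre; Ets1 fl/fl embryos, on a C57BL/6 background and without treatment. There were 2 libraries of each genotype, each made from the pooled ventricles of 3 embryos, and the labels put all 4 in batch 1. Tie2Cre acts in endothelial cells and endocardium, in the cells that descend from them and in blood cells, so the floxed alleles were not targeted in cardiomyocytes as such, and controls carried the Cre and 1 floxed allele too. The embryos were not sexed before use, so a pool could hold males and females.

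Control replicates 1 and 2 held 124140739 and 76931208 UMIs in 12641 and 7949 barcodes, and eKO replicates 1 and 2 held 95131419 and 102872196 UMIs in 10010 and 14951 barcodes. Compact cells numbered 470 and 234 in the controls and 403 and 575 in eKO. Their UMIs summed to 5286317 and 2848921 in the controls and to 4848437 and 4056553 in eKO, and these sums are what was compared. The median compact cell held 11030 and 11994.5 UMIs in the controls, 11742 in eKO replicate 1 and 6997 in eKO replicate 2, which was the shallowest library. The libraries shared 19 to 47 barcodes by pair, and no barcode was shared among the members. Doublet scores against simulated mixtures marked 87 of the 1682 members, and these were kept, with their removal as an alternative.

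The libraries also differed in the sex of their cells. Among compact cells with sex-linked counts, 0 were female and 394 male in control replicate 1, and 97 were female and 97 male in control replicate 2. In eKO replicate 1, 142 were female and 179 male, and in eKO replicate 2, 479 were female and 2 male. Control replicate 1 was therefore nearly all male and eKO replicate 2 nearly all female, while control replicate 2 and eKO replicate 1 were mixed. Y-linked Ddx3y had 42.9 and 22.8 CPM (UMIs of a gene over all UMIs of the class in its library, scaled as counts per mega-UMI) in compact cells of the controls and 18.2 and 0.986 CPM in eKO. A fit with sex as a term is given beside the test below.

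Ets1 (ENSMUSG00000032035, chromosome 9, 32636221 to 32757820, GRCm38) was read first as the check of the deletion. Endothelial cells held it at 300 and 273 CPM in the 1708 and 1192 cells of the controls and 136 and 100 CPM in the 1526 and 2622 cells of eKO. Both eKO libraries were below both controls, and the UMI counts do not record which exons were read, so transcripts that lack the deleted part may be counted. In compact cells, Ets1 was near the bottom of the range, at 7.19 and 9.13 CPM in controls against 9.28 and 10.6 in eKO, from 38, 26, 45 and 43 UMIs. Its log2 fold change of eKO against control there was 0.39, and it was not called.

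Compact cells carried the markers of their label. Hey2 (ENSMUSG00000019789, chromosome 10, 30832359 to 30842801) had 91.2 and 97.2 CPM in controls against 92.0 and 82.3 in eKO, against 33.1, 22.6, 24.8 and 16.1 CPM in the trabecular cells of the same libraries. Trabecular cells were taken with the same limits but with Nppa at 0.5% or more and Tnnt1 under 0.05% of UMIs. Mb (ENSMUSG00000018893, chromosome 15, 77015487 to 77050670), which encodes the oxygen-binding protein myoglobin, had 1615 and 1640 CPM in controls against 1879 and 1676 in eKO. Every compact library was above every trabecular library for both genes. In cells of at least 3000 UMIs, each thinned to that number, Hey2 was seen in 24.8% and 25.3% of compact cells of the controls and 21% and 21.1% in eKO, and Mb in 87.2%, 88.8%, 91.5% and 91.3%. Immune cells, which should lack both, showed Hey2 in 0.585%, 2%, 0.515% and 0.424% of cells and Mb in 2.34%, 4%, 2.06% and 3.81%.

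Tnnt1 (ENSMUSG00000064179, chromosome 7, 4504570 to 4516382), the gene with which the rule draws the class, varied widely inside it. Its median share of UMIs was 0.403% and 0.405% in the controls and 0.467% and 0.426% in eKO, and the highest cells reached 1.35% to 1.42%. The class has no gap at its edge: 229 members lay at 0.2% to 0.25% Tnnt1, and 282 cells that met every other limit lay at 0.15% to 0.2%. As means over the 4 libraries, these neighbours had 1164 CPM Mb and 78.7 CPM Hey2 just inside and 1051 CPM Mb and 99.3 CPM Hey2 just outside. For Nppa, 12 and 9 members of the controls and 9 and 73 of eKO lay at 0.025% to 0.05%, and 6 and 5 against 9 and 43 cells at 0.05% to 0.1%, so most of these were in eKO replicate 2. For the cycle genes 175 members had 3 UMIs and 111 cells had 4.

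Other genes were read along the Tnnt1 share, from cells under 0.05% to cells at 0.4% or more, among non-cycling cardiomyocytes with Nppa under 0.05% and no Tbx3. The mean over the 4 libraries went from 373 to 1940 CPM for Mb and from 26.3 to 185 CPM for Spint2, which encodes a protease inhibitor. Lactate dehydrogenase Ldha went from 1384 to 1956 CPM. Genes of the inner wall went the other way: the guidance ligand Slit2 from 291 to 12.4 CPM and the alpha myosin heavy chain Myh6 from 990 to 309 CPM. Hey2 had 72.6 CPM in the lowest and 89.3 CPM in the highest bin, so among these cells it hardly followed Tnnt1. The ventricular light chain Myl2 was level, at 12237 and 12846 CPM. These are descriptions across cells that share libraries and depth.

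**Figure D1:**
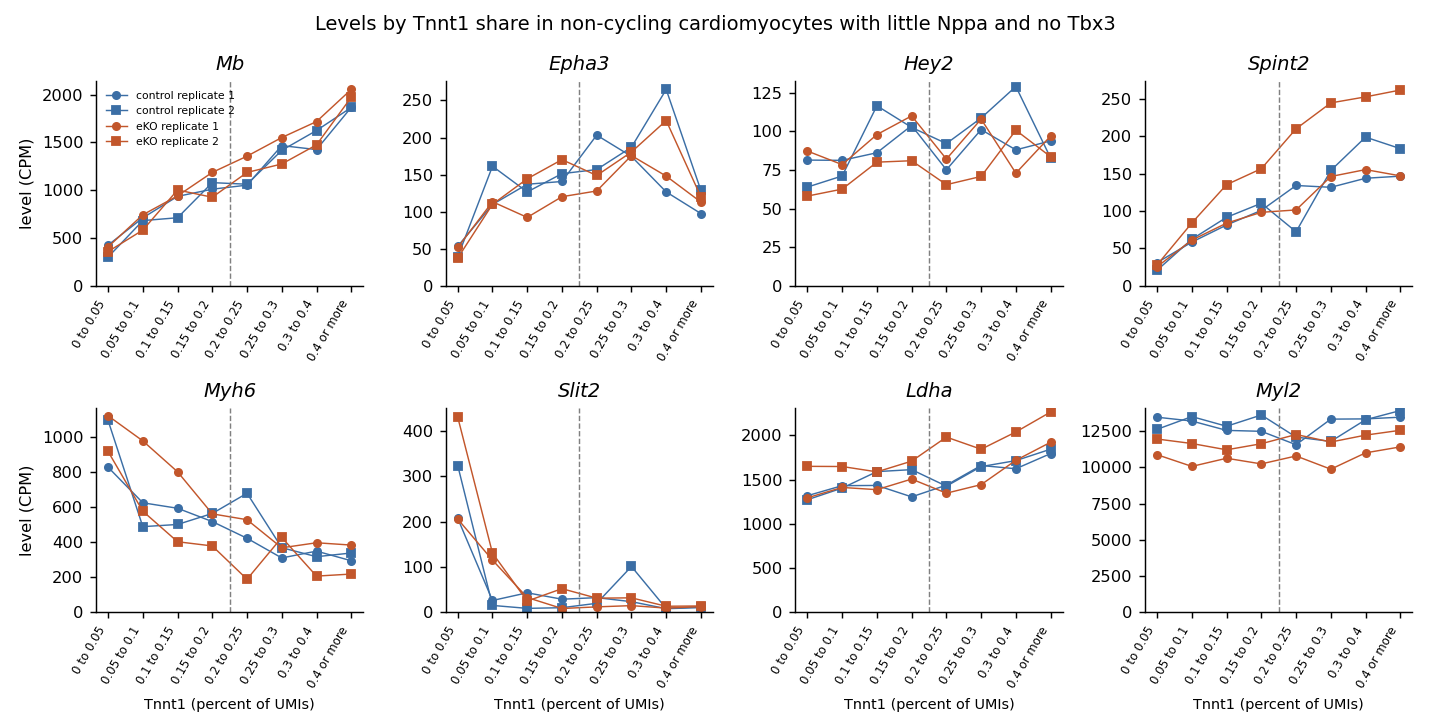
Level (CPM) of 8 genes in non-cycling cardiomyocytes with little Nppa and no Tbx3, by the percent of UMIs that Tnnt1 took, with 1 line per library and the dashed line at the limit of the class (0.2%). Mb climbs in each library, to a mean of 1940 CPM in the last bin, Slit2 ends at a mean of 12.4 CPM, and Myl2 is level.

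The promoters of Tnnt1 and Hey2 are shown since these genes define and mark the cells. The sequences are the RefSeq windows of GRCm38.p6, 250 bases before to 50 after the start, 5′ to 3′ on the gene's own strand, which is the minus strand for both, at chr7:4515926-4516225 and chr10:30842734-30843033. Capitals mark TATAAA, searched on the gene's strand, and CATTCC, the core of the element that TEAD factors bind, searched on both strands (GGAATG on the other). The motifs were chosen after the sequences were seen.
Tnnt1: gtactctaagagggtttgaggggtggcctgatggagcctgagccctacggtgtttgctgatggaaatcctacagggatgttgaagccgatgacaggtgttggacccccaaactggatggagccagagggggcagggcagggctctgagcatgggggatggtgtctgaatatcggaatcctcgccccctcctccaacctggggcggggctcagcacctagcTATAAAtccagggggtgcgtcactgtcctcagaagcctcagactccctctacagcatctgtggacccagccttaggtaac
Hey2: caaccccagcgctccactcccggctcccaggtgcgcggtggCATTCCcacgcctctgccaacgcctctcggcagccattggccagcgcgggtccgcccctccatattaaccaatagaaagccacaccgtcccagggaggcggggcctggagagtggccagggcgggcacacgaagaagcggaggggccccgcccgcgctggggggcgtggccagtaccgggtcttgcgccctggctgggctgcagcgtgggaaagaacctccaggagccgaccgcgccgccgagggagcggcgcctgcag
In Tnnt1 the letters TATAAA begin at position -30 from the start, and in Hey2 the letters CATTCC begin at -209. The 3 windows of Mb, also a marker, hold neither. Of all 32851 windows, 8.32% hold TATAAA and 14.7% hold CATTCC, and a match describes letters only.

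Compact cells were next set beside trabecular cells. Of 6308 genes at 20 CPM or more in either class, 119 (1.89%) were at least 2-fold higher in compact cells in every library and 159 (2.52%) at least 2-fold lower. The cells were chosen on their counts, so this is a description with no test. Highest by the smallest ratio of the 4 libraries was Adgrb3, an adhesion receptor, at a mean of 60.6 ± 17.2 CPM (SD, n = 4 libraries) in compact and 0.311 CPM in trabecular cells. Ryr3, a calcium release channel, had 207 and 11.9 CPM, and Epha3, an ephrin receptor, 143 and 9.34 CPM. Others of the 12 leading genes were Chn2, Lrrtm4, Sh2d4a, Sema5a, Zfp804a, Aldoc and Scrn1, with compact means of 21.6 to 110 CPM. Aldoc encodes an aldolase of glycolysis.

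The genes lowest in compact cells included secreted signals of the inner wall. Slit2 had a mean of 17.6 CPM in compact and 1608 CPM in trabecular cells, and Bmp10, a growth factor of trabecular muscle, had 0.960 and 125 CPM. The guidance ligand Sema3a had 13.02 and 271 CPM. Mest, an imprinted gene, and Cited1, a transcriptional cofactor, were at 110 and 106 CPM in compact cells against 2033 and 2001 CPM. The others of the 12 were Fam189a1, Rtl4, Thbs4, Myl1, Lmntd1, Slc6a6 and Gm15543. Among fixed lists, 15 of 18 genes of glycolysis and hypoxia were higher in compact cells in all 4 libraries and 2 lower (median log2 ratio 1.04). Of all 6308 genes, 2478 were higher and 1398 lower in all 4 libraries, with a median of 0.10. The 13 mitochondrial transcripts went the other way, with 12 lower in all 4 libraries and a median of -0.55, and 9 of 14 genes of fatty acid use were lower and 1 higher. Of 21 genes of the contractile apparatus, 13 were lower and 5 higher, with a median of -0.25.

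Loss of Ets1 from endothelium was then compared with control inside the compact cells. No gene passed the threshold of 0.05 by the quasi-likelihood test of edgeR with Benjamini-Hochberg adjustment (0 of 11635, or 0%), and DESeq2 called 1. At an unadjusted p of 0.05 or less, edgeR gave 453 lower genes (3.89%) and 265 higher ones (2.28%), and DESeq2 gave 197 in all. Both eKO libraries were below both controls for 2386 genes (20.5%) and above them for 2133 (18.3%), after scaling by TMM. The genes named next have the smallest unadjusted p in each direction and were not called.

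Leading the lower genes was Sorcs2 (ENSMUSG00000029093, chromosome 5, 36017180 to 36398139), a receptor of the sortilin family. It had 40.5 and 34.4 CPM in controls against 14.2 and 8.63 in eKO, with means of 37.4 ± 4.30 and 11.4 ± 3.96 CPM (SD, n = 2 libraries). Its groups lay well apart, with a log2 fold change of -1.63 (SE 0.23) and an adjusted p of 0.0717 by the quasi-likelihood test of edgeR with Benjamini-Hochberg adjustment, and it was the gene that DESeq2 called, at an adjusted p of 0.0123. Over its 16 alternatives, the adjusted p of Sorcs2 ran from 1.62e-12 to 0.440, and 10 of them called it. Pcdh15 (ENSMUSG00000052613, chromosome 10, 73099342 to 74649737), a protocadherin, had 17.8 and 20.7 CPM in controls against 7.01 and 5.42 in eKO. Rgs6 (ENSMUSG00000021219, chromosome 12, 82588292 to 83162056), which shortens G protein signals downstream of receptors in heart, had 124 and 111 CPM in controls against 60.8 and 62.9 in eKO. Both controls were above both eKO libraries for each, at log2 fold changes of -1.52 (SE 0.25) and -0.86 (SE 0.16).

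The other lower genes were of mixed kinds. Ntm, an adhesion protein of neurons, had 120 and 115 CPM in controls against 63.7 and 62.6 in eKO. The cyclic nucleotide phosphodiesterase Pde10a had 11.9 and 11.9 CPM against 2.27 and 3.94 CPM. Elastin, Eln, had 11.2 and 16.8 CPM against 4.54 and 3.20 CPM. Grid1, a glutamate receptor of the delta type, and the long noncoding RNA Gm13481 completed the 8, at log2 fold changes of -2.93 and -1.21. Grid1 rested on few UMIs, with 0.619 CPM in eKO replicate 1.

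As means over libraries, the 8 higher genes had a median level of 17.4 CPM. This was 13.9 CPM for the 8 lower genes and 20.7 CPM for all genes tested. Tnni2 (ENSMUSG00000031097, chromosome 7, 142441808 to 142444410), the fast skeletal isoform of troponin I, had 16.1 and 23.2 CPM in controls against 44.6 and 32.8 in eKO, a log2 fold change of 1.10 (SE 0.22). Cda, which deaminates cytidine, had 16.1 and 18.6 CPM in controls against 35.5 and 28.8 in eKO. Cox4i2, an isoform of a cytochrome c oxidase subunit, had 7.76 and 8.07 CPM in controls against 11.8 and 18.7 in eKO. The groups did not overlap for any of these. Tek, the receptor for angiopoietins and an endothelial marker, had 1.32 and 1.76 CPM in controls against 5.36 and 7.89 in eKO. Like Grid1, it rested on few UMIs. Thsd7b, Hacd4, Gabrg3 and Nudt18 completed the 8, with log2 fold changes of 1.78, 0.97, 0.86 and 0.95.

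**Figure D2:**
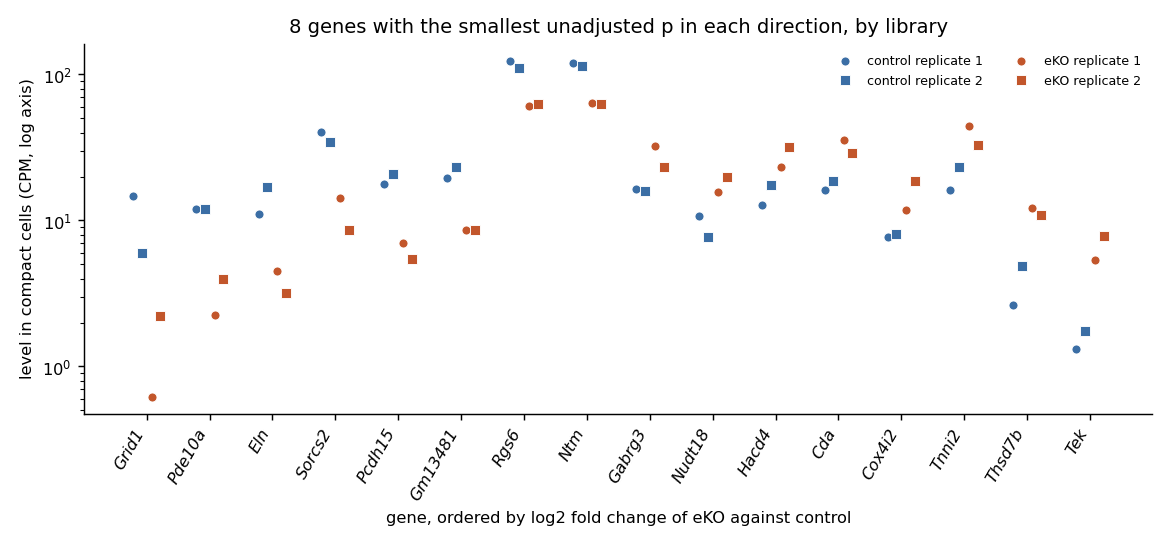
Level in compact cells (CPM, log axis) of the 8 lower and 8 higher genes with the smallest unadjusted p, with 1 point per library. The controls lie above eKO for the 8 genes at the left and below it for the 8 at the right, and none passed the adjusted threshold.

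The test depends on single libraries. Without control replicate 1 it called 23 genes, without control replicate 2 37, without eKO replicate 1 375 and without eKO replicate 2 153, where the group left with a lone library is assumed to vary like the other. Of the genes so called, 444 were called in 1 of these 4 fits and 2, Sorcs2 and Pcdh15, in all 4. With sex as a term 6 genes were called, with replicate number as a block 29, with no filter on low counts 78, and with at most 1 UMI of the cycle genes 12. The fit with sex counts male and female cells of a mixed library as separate samples, so its samples are not all independent. DESeq2, total count scaling and removal of doublets gave 1 each. All p-values rest on 2 pooled libraries per group, so they speak of these pools, and variation between embryos within a pool is not seen.

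Lists of growth control genes are given by their values, and none of their genes passed the test. Of the 13 tested genes of the Hippo and YAP list, 8 were lower in both eKO libraries than in both controls and 0 higher, against 20.5% and 18.3% of all genes, with a median log2 fold change of -0.22, against 0.01 over all 11635 genes. Yap1, the coactivator of the pathway, had 50.7 and 48.1 CPM in controls against 37.1 and 33.3 in eKO. Its DNA-binding partner Tead1 had 252 and 274 CPM in controls against 218 and 200 in eKO, and the target Ccn1 13.6 and 11.9 against 6.39 and 9.61 CPM. The groups did not overlap for these genes. Another target, Ankrd1, overlapped: it had 551 and 726 CPM in controls against 1009 and 400 in eKO, and its log2 fold change of 0.22 became -0.60 without eKO replicate 1 and 0.74 without eKO replicate 2, each called.

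Of 11 genes of neuregulin and fibroblast growth factor reception, 5 were lower without overlap and 0 higher, with a median of -0.24, where all genes had 20.5% lower and 18.3% higher. Erbb4, the neuregulin receptor of cardiomyocytes, had 1325 and 1647 CPM in controls against 1209 and 1170 in eKO, with Erbb2 at 20.6 and 25.6 against 23.5 and 21.9 CPM, which overlap. Gab1, an adaptor below these receptors, had 147 and 157 CPM in controls against 114 and 106 in eKO, and Fgfr1 had 19.5 and 23.9 against 14.6 and 13.8 CPM. Of 13 genes of insulin-like growth factor reception, 4 were lower and 1 higher, with a median of -0.15, against the same shares of all genes. Igf1r, the receptor, had 296 and 361 CPM in controls against 246 and 240 in eKO, while its ligand Igf2 had 327 and 316 against 413 and 343 CPM.

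Notch, Wnt and BMP genes were read in the same way. Of 8 Notch genes tested, 4 were lower without overlap and 1 higher, with a median of -0.24 (all genes: 20.5% lower and 18.3% higher). Numb, an inhibitor of Notch, had 62.2 and 75.1 CPM in controls against 51.8 and 46.1 in eKO, and the target Hes1 was the higher one. Notch1 itself was under the filter, at 1.40 to 2.71 CPM. Of 14 Wnt and BMP genes, 8 were lower and 1 higher, with a median of -0.21. Tcf7l1, a repressor in the Wnt pathway, had 14.6 and 15.1 CPM in controls against 10.5 and 6.90 in eKO. The BMP receptor Bmpr2 had 93.8 and 105 against 80.0 and 72.7 CPM. Of 13 receptors for Slit ligands and matrix, 1 was lower and 1 higher, with a median of -0.01, and the Slit receptor Robo1 had 67.2 and 73.7 against 62.3 and 77.4 CPM.

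Identity genes of the compact and trabecular layers come next. Of 9 compact zone genes tested, 2 were lower and 1 higher, with a median of -0.01. Of 11 trabecular genes, 3 were lower and 0 higher, with a median of -0.11. Among all genes, 20.5% were lower and 18.3% higher. Prdm16 (ENSMUSG00000039410, chromosome 4, 154316125 to 154636873), a transcription factor that favours compact identity, had 138 and 173 CPM in controls against 96.9 and 92.2 in eKO, a log2 fold change of -0.64 (SE 0.17). Its groups did not overlap, its adjusted p was 0.644 by the quasi-likelihood test of edgeR with Benjamini-Hochberg adjustment, and its values in trabecular cells were 132 and 144 against 88.2 and 55.5 CPM. Tbx20, another factor of the list, had 539 and 538 CPM in controls against 495 and 379 in eKO. In all, 2386 genes were lower in both eKO libraries, so Prdm16 and Rgs6 are examples, and the letters they share are a description only. Both hold CATTCC in their RefSeq windows (GRCm38.p6, chr4:154636824-154637123 on the minus strand and chr12:82617249-82617548 on the plus strand). These are shown with CATTCC or its reverse complement GGAATG in capitals.
Prdm16: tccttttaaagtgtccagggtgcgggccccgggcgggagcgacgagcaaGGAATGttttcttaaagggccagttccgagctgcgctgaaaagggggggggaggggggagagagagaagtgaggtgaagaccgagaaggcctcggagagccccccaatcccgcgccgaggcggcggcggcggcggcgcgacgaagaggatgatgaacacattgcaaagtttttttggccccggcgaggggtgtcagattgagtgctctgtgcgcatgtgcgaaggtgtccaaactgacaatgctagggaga
Rgs6: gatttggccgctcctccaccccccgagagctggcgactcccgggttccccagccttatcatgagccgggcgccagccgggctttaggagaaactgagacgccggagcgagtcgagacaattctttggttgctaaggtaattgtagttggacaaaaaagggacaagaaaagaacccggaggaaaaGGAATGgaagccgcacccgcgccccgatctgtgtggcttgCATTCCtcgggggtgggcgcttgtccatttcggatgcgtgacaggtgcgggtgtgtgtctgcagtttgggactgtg
In Prdm16 the letters begin at position -201 and in Rgs6 at -66 and -26. Of the 16 genes named by their p, 10 have a window and 2 of these hold CATTCC, against 14.2% of the 9109 tested genes with a window. Prdm16 is not among the 16. Of its list of 10 compact zone genes, 9 have a window and 3 of these hold CATTCC.

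Of 11 tested genes of the cell cycle that the rule did not use, 6 were higher in eKO without overlap, 5 overlapped and 0 were lower, against 18.3% higher and 20.5% lower over all genes, with a median of 0.38. None passed the test. The limit of 3 UMIs of cycle genes is not scaled by depth, so it is looser in eKO replicate 2, where the median cell held 6997 UMIs. Top2a, a topoisomerase of dividing cells, had 12.1 and 16.5 CPM in controls against 18.2 and 19.5 in eKO. Tyms, which makes thymidylate, had 18.3 and 19.0 against 20.2 and 31.1 CPM, and Birc5, a protein of mitosis, 23.3 and 20.7 against 26.2 and 39.9 CPM. For the last pair the value of eKO replicate 2 stood out. Among 17 regulators of the G1 phase, 1 was lower and 3 higher, with a median of 0.07. The lower one was Btg2, which restrains division, with 81.9 and 70.6 CPM in controls against 43.5 and 51.0 in eKO, and E2f1, which drives entry to S phase, was among the higher, with 12.3 and 8.42 against 12.6 and 21.2 CPM. The rule genes of the cycle, read with no test, had 14.2 and 15.4 CPM against 12.4 and 22.9 CPM for Rrm2 and 8.32 and 8.78 CPM against 17.3 and 21.9 CPM for Pclaf. Ube2c had 39.0 and 40.0 CPM against 39.6 and 61.1 CPM, and the other 5 were at 0.619 to 7.76 CPM in every library.

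Of 19 genes of glycolysis and hypoxia, 9 were higher without overlap and 1 lower, with a median of 0.16, where 18.3% of all genes were higher and 20.5% lower. Pgam1, a mutase of glycolysis, had 641 and 634 CPM in controls against 686 and 923 in eKO, and Ldha had 1694 and 1731 against 1786 and 2130 CPM. The lower one was the glucose transporter Slc2a1, with 101 and 107 against 85.0 and 83.3 CPM. Of 13 transcripts of the mitochondrial genome, 6 were lower and 0 higher, with a median of -0.26: mt-Co3 had 8776 and 10028 CPM in controls against 6352 and 6654 in eKO. The rule caps the sum of mitochondrial UMIs at 15%, so these values are a description, bounded by the choice of cells. Of 15 genes of fatty acid use, 4 were lower and 2 higher, near the shares of all genes, with a median of 0.04.

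Of 21 contractile genes tested, 2 were lower and 6 higher, with a median of -0.02, beside 20.5% lower and 18.3% higher among all 11635 genes. Acta2, the smooth muscle actin of early cardiomyocytes, had 1666 and 1684 CPM in controls against 2109 and 2321 in eKO. Of 14 calcium handling genes, 7 were lower and 2 higher, with a median of -0.17. The calcium channel gene Cacna1c had 2354 and 2484 CPM in controls against 1896 and 1384 in eKO, and the release channel gene Ryr2 had 1552 and 1455 against 1226 and 850 CPM. The groups of Acta2, Cacna1c and Ryr2 did not overlap. Of 13 genes for signals to vessels, 5 were lower and 1 higher, with a median of 0.06: Vegfb had 274 and 253 CPM in controls against 335 and 318 in eKO, and Vegfc had 58.1 and 69.5 against 45.6 and 44.9 CPM. Of 3 genes of the ventricular side, 0 were lower and 0 higher.

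Gene length differed between the lower and the higher genes. Genes were taken as long as their annotated span, which 11629 of the 11635 tested have. Their median span was 26.4 kb, that of the 453 lower genes 94.2 kb and that of the 264 of 265 higher genes with a span 12.0 kb. Among 389 genes of 300 kb or more, 20.8% were lower at an unadjusted p of 0.05 or less and the median log2 fold change was -0.22, while among 2664 genes under 10 kb, 1.35% were lower and the median was 0.15. Genes of at least 100 kb took 15.01% and 16.2% of the UMIs of compact cells in the controls and 13.8% and 12.3% in eKO, and ribosomal protein genes took 13.2% and 13.4% against 14.996% and 14.8%. The 8 lower genes named first had a median span of 518 kb, and Prdm16, Erbb4, Tead1, Cacna1c and Ryr2 are long as well, at a span of over 100 kb. So are Gab1, Igf1r, Numb, Tcf7l1, Bmpr2 and Vegfc, also lower. Among other lower genes named from the lists, Yap1, Ccn1, Fgfr1, Tbx20, Btg2, Slc2a1 and mt-Co3 span under 100 kb. The higher Hes1, Igf2, Top2a, Tyms, Birc5, E2f1, Pgam1, Ldha, Acta2 and Vegfb span under 100 kb too. The part of gene length, and of what shifts RNA of long genes, in the lists above was not tested.

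**Figure D3:**
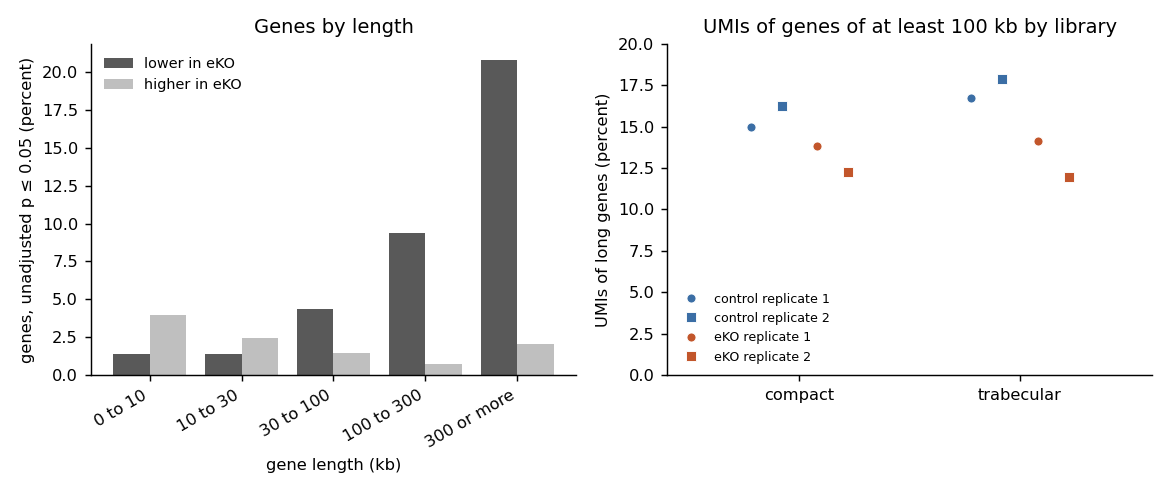
Left, percent of tested genes that were lower or higher in eKO at an unadjusted p of 0.05 or less, by annotated gene length (kb). Right, percent of UMIs from genes of at least 100 kb in compact and trabecular cells, with 1 point per library: both eKO libraries are below both controls in each class, at 13.8% and 12.3% against 15.01% and 16.2% in compact cells.

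Markers of other cell types were low in compact cells but not even across libraries. The 13 endothelial markers, 4 of them in the rule, summed to 45.0 and 38.3 CPM in controls against 39.2 and 92.9 in eKO, with Fabp4 the most abundant and none at 0. The 9 immune markers, led by Lyz2, summed to 8.89 and 7.37 against 5.98 and 71.5 CPM, so they stood out in eKO replicate 2. The 8 erythroid markers, led by Hbb-bs, summed to 2535 and 62.1 against 985 and 1193 CPM, and this differed as much between the controls as between any libraries. The 10 fibroblast markers, led by Col3a1, summed to 81.7 and 68.1 against 91.6 and 84.6 CPM.

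The 8 epicardial markers summed to 58.1 and 100 against 90.8 and 123 CPM, nearly all of it Krt19 (55.8, 98.3, 83.5 and 120 CPM), while Upk3b, Wt1 and Msln were each under 2 CPM. The 9 markers of atrium and canal summed to 44.8 and 57.9 against 35.1 and 47.3 CPM, led by Rspo3, with Tbx3 at 0 by the rule. Of tested genes in these lists, 1 of 6 endothelial and 3 of 9 fibroblast markers were higher without overlap, 2 of 6 atrial and canal markers lower, and 0 of 1 epicardial, 0 of 1 immune and 0 of 6 erythroid markers either. Of 10 genes of stress and RNA quality, 2 were lower and 0 higher, and of 5 sex-linked genes 3 were lower and 0 higher, while all genes had 20.5% lower and 18.3% higher. The 415 members with 3 or more UMIs of endothelial, fibroblast, epicardial or immune markers were left out as an alternative, and 0 genes were called then too, by edgeR. The part of these markers in the other values was not tested.

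The share of compact cells among non-cycling cardiomyocytes is a description, since the genes of the rule define it. It was 17.3% (exact Clopper-Pearson 95% interval 15.9% to 18.8%) and 15.2% (13.5% to 17.1%) in the controls and 20.6% (18.8% to 22.5%) and 18.4% (17.1% to 19.8%) in eKO. Both eKO libraries were above both controls, though the interval of eKO replicate 2 overlaps those of both controls. The means were 16.3% ± 1.48 and 19.5% ± 1.55 (SD, n = 2), a difference of 3.26 points. Cells with Tnnt1 and Nppa at or above these limits were 0.6996% and 0.520% of the controls and 0.716% and 1.95% of eKO, and trabecular cells were 11.1% and 10.0% against 9.41% and 15.9%. Cells with neither were 52.9% and 52.2% against 49.2% and 44.5%. These are shares of dissociated cells, which do not give the size of a layer.

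Cycling is described among cells of compact type, cycling or not, again with no test. Cells under 5000 UMIs were left out, 26 and 10 in the controls and 22 and 162 in eKO, so the loss was largest in eKO replicate 2. After the others were thinned to 5000 UMIs, over 3 UMIs of the 8 cycle genes were held by 39.2% (interval 36.0% to 42.5%) and 35.3% (30.9% to 39.8%) of these cells in the controls. In eKO they were held by 43.7% (40.4% to 47.1%) and 50.3% (47.3% to 53.3%). Both eKO libraries were above both controls, though the intervals of control replicate 1 and eKO replicate 1 overlap. The means were 47.0% ± 4.65 in eKO and 37.2% ± 2.77 in controls (SD, n = 2). The difference was 9.75 points. It was 6.46 points without eKO replicate 2, where the share was highest. With all UMIs and no thinning the shares were 49.4% and 50.4% in the controls and 54.6% and 54.1% in eKO, a difference of 4.40 points. By Mki67 or Top2a, which the rule did not use, they were 40.5% and 40.3% against 44.2% and 51.8%. Trabecular-type cells, held to the same count, were at 23.6% and 24.6% in the controls and 23.2% and 30.5% in eKO, which overlap, and all cardiomyocytes at 38.7% and 32.9% against 39.5% and 46.1%. The paper reports, from earlier work, lower proliferation of compact zone cardiomyocytes in eKO, which is the opposite direction. In heart sections at embryonic day 14.5 it also reports a thinner compact zone after deletion of Ets1 in coronary endothelium or in endocardium alone. The shares here rest on transcripts of dissociated cells, an unlike measure, and the reason for the opposite direction was not tested. Sex makeup and immune and endothelial markers also set eKO replicate 2 apart, and their part in these shares was not tested.

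**Figure D4:**
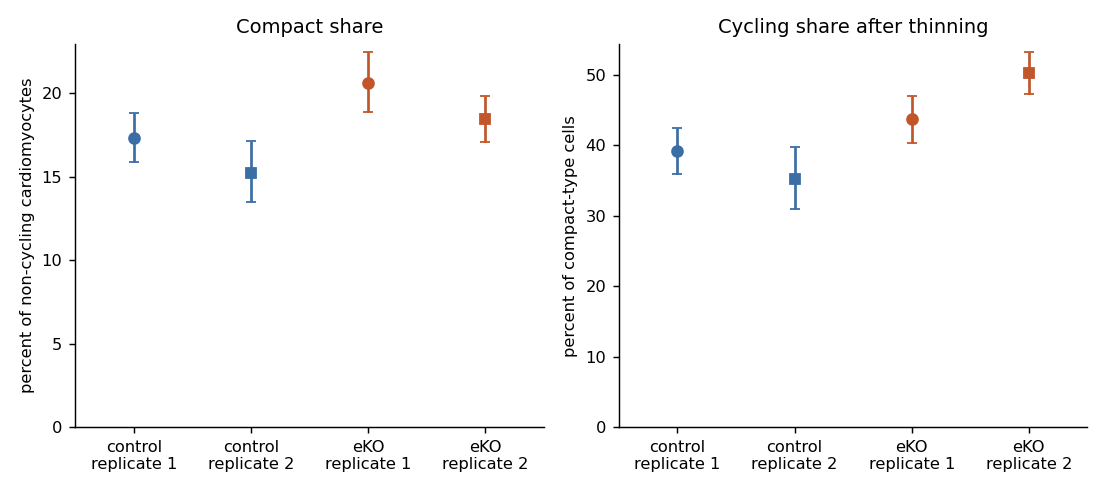
Left, compact cells as a percent of non-cycling cardiomyocytes. Right, cells with over 3 UMIs of the 8 cycle genes as a percent of compact-type cells after thinning to 5000 UMIs, with points for libraries and bars for exact 95% intervals; the points of eKO lie at 20.6% and 18.4% and at 43.7% and 50.3%.

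Whether the eKO effect differed between compact and trabecular cells was tested directly, as a class by condition term. Of 11862 genes, 26 differed by the quasi-likelihood test of edgeR with Benjamini-Hochberg adjustment (0.219%), 18 with the larger log2 fold change in compact cells and 8 with the smaller, and 919 had an unadjusted p of 0.05 or less (7.75%). DESeq2 called 4. For 22 of the 25 with a fold change in each class, the trabecular change was the larger in size. This is a description, since the share over all tested genes was not taken. Trabecular sums also rest on fewer cells, 1135 against 1682.

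Mb, the myoglobin gene and a marker of the compact class, was among them. It had 1615 and 1640 CPM in compact cells of the controls and 1879 and 1676 CPM in eKO, against 418 and 364 CPM and then 300 and 270 CPM in trabecular cells. The groups did not overlap in either class and lay in opposite order, at a difference of 0.54 (SE 0.10) and an adjusted p of 0.0118 by the quasi-likelihood test of edgeR with Benjamini-Hochberg adjustment. Igf1, a growth factor, had 22.7 and 22.5 CPM in compact cells of the controls and 37.5 and 29.3 CPM in eKO, against 21.8 and 23.6 and then 12.4 and 11.4 CPM in trabecular cells. Its difference was 1.42 (SE 0.27).

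Some of the 26 are genes of the immediate early and heat shock responses, while Egr1, Junb and Hspa1b were not among them. No enrichment of any kind of gene was tested among the 26. Atf3, a stress-induced transcription factor, had 39.0 and 30.9 CPM in compact cells of the controls and 36.1 and 51.3 CPM in eKO, against 151 and 127 and then 55.8 and 68.4 CPM in trabecular cells. Fos had 125 and 94.4 against 89.3 and 137 CPM in compact cells and 256 and 238 against 118 and 159 CPM in trabecular cells. In compact cells the groups overlapped for both, and in trabecular cells eKO was the lower. Jun, Fosb and the chaperone genes Hspa1a, Dnaja4 and Dnajb1 differed by 0.79, 1.64, 3.33, 1.14 and 1.07, with eKO the lower in trabecular cells for each and the higher in compact cells for Fosb and Dnaja4. Others of the 26 act at membranes: Kctd16 and the potassium channel gene Kcnd2 differed by 2.18 and 0.76, and Akap6, which anchors protein kinase A, by 0.63.

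The count leans on control replicate 1, since 2 genes were called without it. It was 96 without control replicate 2, 64 without eKO replicate 1, 49 with no filter on low counts, 17 with Tnnt1 at 0.3%, 14 with relaxed limits for trabecular cells and 4 with cells thinned to 4000 UMIs. The share of UMIs from genes of at least 100 kb was 16.8% and 17.9% in trabecular cells of the controls and 14.2% and 12.0% in eKO, and whether this or the uneven erythroid and immune markers bear on the 26 was not tested.

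**Figure D5:**
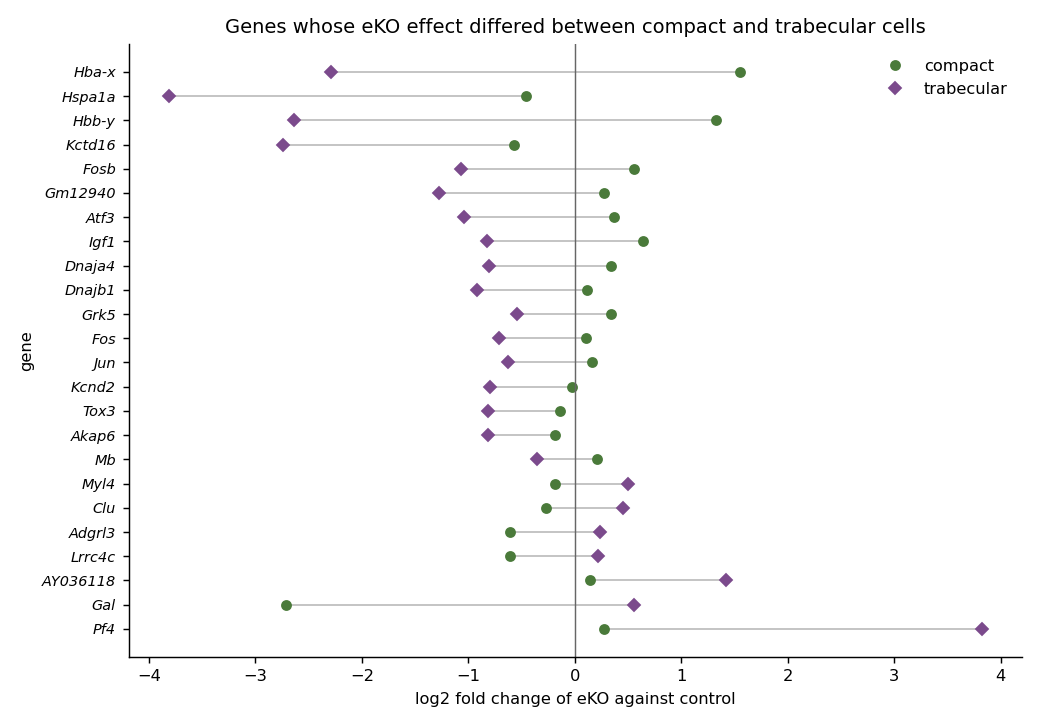
Log2 fold change of eKO against control in compact (circles) and trabecular (diamonds) cells for 24 of the 26 genes whose eKO effect differed between the classes; Pid1, tested in the joint fit alone, is not drawn. For Mb the compact value is 0.20 and the trabecular one -0.35.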

How the data were processed

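Single-cell RNA was counted in 4 libraries of E14.5 ventricles. The authors deposited raw counts of UMIs per gene and barcode, made with Cell Ranger 7.1.0 on mm10, and whole numbers do not show which later steps they had passed. The study's methods name CellBender for background RNA, DoubletFinder for doublets and Seurat 4.3.0. Members and lists were chosen with earlier results of these data known. Counts were summed per library over members, since cells are not replicates, and 11635 genes that filterByExpr kept were tested by quasi-likelihood after TMM scaling (edgeR 4.0.16, R 4.3.3), with a Benjamini-Hochberg threshold of 0.05. The genes that the rule names were dropped after scaling, while mitochondrial genes, which it limits as a sum, stayed in. The difference between classes was tested on 8 sums with a term for each library, for class, and for condition within class. CPM are UMIs of a gene over all UMIs of a class in a library, scaled as counts per mega-UMI. Overlap of groups was judged on CPM scaled by TMM in the test of compact cells. For the 26 genes that differed between classes it was judged on CPM without that scaling. The biological coefficient of variation was 13.3%.

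Doublets were scored with 2 simulated per barcode, 90 neighbours, 30 components and 2000 variable genes, at 0.8% per 1000 barcodes, and kept in the main values. Sex was read from Xist against Ddx3y, Eif2s3y, Kdm5d and Uty. Shares have exact 95% intervals, which cover counting error only, and no p is given for them, since they are built from the genes of the rule. Thinning drew UMIs without replacement with fixed seeds, counted up from 0. Positions came from GENCODE vM21 (32158 of 32285 IDs), and 316 of 317 genes of 25 lists were matched by symbol. The 25 lists are described by counts of genes whose groups do not overlap and by medians, with no test of a list. Named genes are Tnnt1, Hey2, Mb and Ets1, list members needed to describe a list or at its ends, called genes, 8 genes per direction with the smallest unadjusted p where fewer than 12 were called, and the 12 highest and 12 lowest of the compact to trabecular ratio (1 CPM added to each). A few genes that these rules select are not reported here, though counts and medians include them.

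The alternatives changed the tool (DESeq2 1.42.0), scaled by total counts, kept low counts, blocked on replicate number, dropped each library in turn, or added sex as a term (units of at least 20 cells, so that parts of a library count as separate samples), and others removed doublets or cells with other types' markers, moved the limits on Tnnt1, Nppa, cycle genes, mitochondrial UMIs and trabecular cells, or thinned the cells. Total count scaling moved the median log2 value over tested genes from 0.01 to -0.06. The tests were tried on simulated counts. Python 3.11.15 ran the other steps, with tables in pandas 2.3.3 and numpy 2.4.6, exact intervals from scipy 1.17.1, neighbours from scikit-learn 1.9.0 and plots from matplotlib 3.10.9.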

Additional observations from a re-analysis of the deposited data

Results flagged for a closer look

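For 26 genes the eKO effect in compact cells differed from that in trabecular cells of the same libraries, by edgeR's test of the difference itself. Values are the log2 fold change of eKO against control in compact cells minus that in trabecular cells. The called genes are grouped here for reading only, with no test of any group. Those known for stress or early responses differed by 1.43 for Atf3, 0.82 for Fos, 0.79 for Jun, 1.64 for Fosb, 3.33 for Hspa1a, 1.14 for Dnaja4 and 1.07 for Dnajb1. Genes of membranes and signalling differed by 2.18 for Kctd16, 0.90 for Grk5, 0.76 for Kcnd2, 0.63 for Akap6, 1.42 for Igf1, -0.90 for Adgrl3, -0.92 for Lrrc4c, -3.29 for Gal and -4.08 for Pid1. Mb differed by 0.54 and the light chain Myl4 by -0.67, and Tox3, Clu, Gm12940 and AY036118 by 0.68, -0.74, 1.58 and -1.28.

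The embryonic globin genes Hba-x and Hbb-y differed by 3.71 and 3.11, and Pf4, a gene of platelets and macrophages, by -3.46. In compact cells Hbb-y had 266 and 10.5 CPM in controls against 615 and 61.9 in eKO, and in trabecular cells 763 and 8.34 against 36.2 and 76.3 CPM. Pf4 had 9.84, 0, 2.27 and 11.8 CPM in compact cells and 1.08, 0.491, 3.81 and 17.4 CPM in trabecular cells. Gal had 24.2 CPM in compact cells of control replicate 1 and 0.206 to 4.68 CPM in those of the other libraries. The groups overlapped in compact cells for each of these 4.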

How the results depend on the processing

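The count of genes called between eKO and control in compact cells was 0 by edgeR (718 at an unadjusted p of 0.05 or less). It was 1 by DESeq2, 1 with total count scaling, 78 with no filter on low counts, 29 with the replicate block, 6 with sex as a term, 1 with doublets removed, 12 with at most 1 UMI of the cycle genes, and 23 to 375 with a library left out. The fit with sex counts parts of a library as separate samples. The block treats equal replicate numbers as pairs. Across genes the replicate differences of the groups had a correlation of -0.0288, so the numbers show no pairing. The other 5 settings called 0. The count for compact against trabecular cells, 26, was 4 by DESeq2, 49 with no filter, 17 with Tnnt1 at 0.3%, 4 after thinning to 4000 UMIs, 14 with relaxed trabecular limits, and 2 to 96 with a library left out. The cause of these moves was not tested.

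The difference in compact share was above 0 in its 12 alternatives (2.16 to 4.35 points) and that in cycling share in its 10 (4.40 to 13.03 points). Of 943 alternative values of 59 named genes, 934 kept their direction, and 33 genes were called at least once. The 9 reversed values belong to 4 genes, and the cause was not tested. Hey2, at -0.03, was -0.12 to 0.048 with a library left out. Ankrd1, at 0.22, was -0.60 to 0.74. Erbb2, at 0.07, was -0.055 to 0.19, with -0.0013 under total count scaling and -0.049 with Tnnt1 at 0.1%. Robo1, at 0.07, was -0.092 to 0.21, with -0.010 under total count scaling, -0.077 with sex as a term and -0.065 without cells with other types' markers. Depth limits what small classes show: the 234 compact cells of control replicate 2 held 2848921 UMIs, and genes under the filter were not tested.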

Other observations

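The sum of UMIs in the 20 most abundant genes of compact cells was even, at 14.1% and 13.9% in the controls and 13.3% and 13.6% in eKO. The nuclear RNA Malat1 had 8599 and 8838 CPM in controls against 11333 and 8150 in eKO. The median compact cell had 5.31% and 5.43% of its UMIs from mitochondrial genes in the controls and 4.13% and 4.11% in eKO. Nppa had no UMI in 72.3% and 73.9% of members of the controls and in 77.9% and 62.8% in eKO.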
